A study of Bos grunniens and Bos grunniens x Bos taurus with 6 samples.

Results

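The piRNA pathway genes PIWIL4, MAEL, GTSF1 and TDRD9 were followed through the cells of yak testis. They were taken by symbol from the gene tables of 6 single-cell libraries, where each symbol named 1 feature, so that 4 of 26961 features were described (PIWIL4 is ENSBGRG00000010477, MAEL ENSBGRG00000006416, GTSF1 ENSBGRG00000000289 and TDRD9 ENSBGRG00000004595). RNA of testis cells was counted with 10x Genomics chemistry, in which a UMI (unique molecular identifier) marks a captured RNA molecule. The libraries came from prepubertal yak (Bos grunniens) aged 6 months (replicates 1 and 2), adolescent yak aged 18 months (replicates 3 and 4), a sexually mature yak of 4 years (1 library) and a sexually mature cattle-yak (Bos grunniens x Bos taurus, 1 library with no age in the labels). The males of this hybrid are known to be sterile. All libraries were made from thawed frozen tissue that was digested with collagenase, hyaluronidase and trypsin and then held in culture medium.

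PIWI-interacting RNAs (piRNAs) are small RNAs of the germ line that guide PIWI proteins to transposon transcripts and silence them. PIWIL4 is the nuclear PIWI protein, known in mouse for directing DNA methylation of transposons in male germ cells before birth. The other proteins act with PIWI proteins: MAEL (Maelstrom) in transposon silencing and piRNA production, GTSF1 as a zinc finger protein that helps PIWI proteins cleave RNA, and TDRD9 as a Tudor-domain helicase that works with the nuclear PIWI protein.

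The libraries held between 9575446 and 24762829 UMIs, and 29243 cells were kept. Median depth per cell ran from 1467 to 2074 UMIs. Any pair of libraries shared between 5 and 16 cell barcodes. Cells were grouped into 41 clusters, of which 35 were named from marker lists and 6 (1168 cells) were left unnamed. No piRNA pathway gene was a marker, and none entered the variable genes behind the clusters. The labels tag every sample as germ cells, but germ cell classes made up 0.973% and 1.41% of the cells at 6 months and 17.6% and 14.4% at 18 months. The 4-year library had 35.1% and the cattle-yak 3.49%. Spermatogonium-like cells numbered 72 and 80 at 6 months, 697 and 562 at 18 months, 63 in the 4-year library and 83 in the hybrid. Early spermatocyte-like cells numbered 193 at 4 years and 40 in the cattle-yak, and at most 14 in any other library. The 609 late spermatocyte-like cells of the 4-year library had 4 counterparts in the cattle-yak, and all 736 spermatid-like cells came from the 4-year library.

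All 4 genes were counted mainly in germ cells in every library. Germ cell classes held 80.8% to 100% of the UMIs of a gene, the lowest share being TDRD9 at 6 months (21 of 26 UMIs, replicate 1) and the highest PIWIL4 in the cattle-yak (6 of 6 UMIs). Levels are given on the counts-per-million (CPM) scale, taken over all UMIs of the same group of cells. The summed level in germ cell classes lay above that of the pooled somatic classes in 24 of 24 pairs of gene and library, by exact 95% intervals of the ratio that cover counting error only. With cells gated by their own markers in place of clusters, the number was 23 of 24, the exception being PIWIL4 at 4 years (ratio 1.03, interval 0.599 to 1.83). Outside the 4-year library and replicate 3, no somatic class of any library exceeded 12.6 CPM for MAEL, 3.5 CPM for GTSF1, 4.20 CPM for TDRD9 or 1.71 CPM for PIWIL4.

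In spermatogonium-like cells, PIWIL4 stood at 119 and 80.0 CPM at 6 months, 149 and 52.5 CPM at 18 months, 116 CPM at 4 years and 31.1 CPM in the cattle-yak. The replicates of 18 months lay at both ends of the yak values, and the cattle-yak lay below all of them, although its interval (11.4 to 67.7 CPM) overlapped that of replicate 4 (44.6 to 61.4 CPM). MAEL stood at 295 and 261 CPM at 6 months, 335 and 387 CPM at 18 months, 378 CPM at 4 years and 394 CPM in the cattle-yak. Both 6-month libraries were at the low end, but no neighbours in the order of the 6 libraries were farther apart than the replicates of 18 months.

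GTSF1 stood at 142 and 156 CPM at 6 months, 118 and 183 CPM at 18 months, 141 CPM at 4 years and 176 CPM in the cattle-yak. The replicates of 18 months held the lowest and the highest of these, so that no library lay outside their range. TDRD9 stood at 69.5 and 46.3 CPM at 6 months, 106 and 53.2 CPM at 18 months, 104 CPM at 4 years and 77.7 CPM in the cattle-yak. Its 6-month and 18-month values overlapped. PIWIL4 and TDRD9 were both higher in replicate 3 than in replicate 4, while MAEL and GTSF1 were both lower in it.

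**Figure D1:**
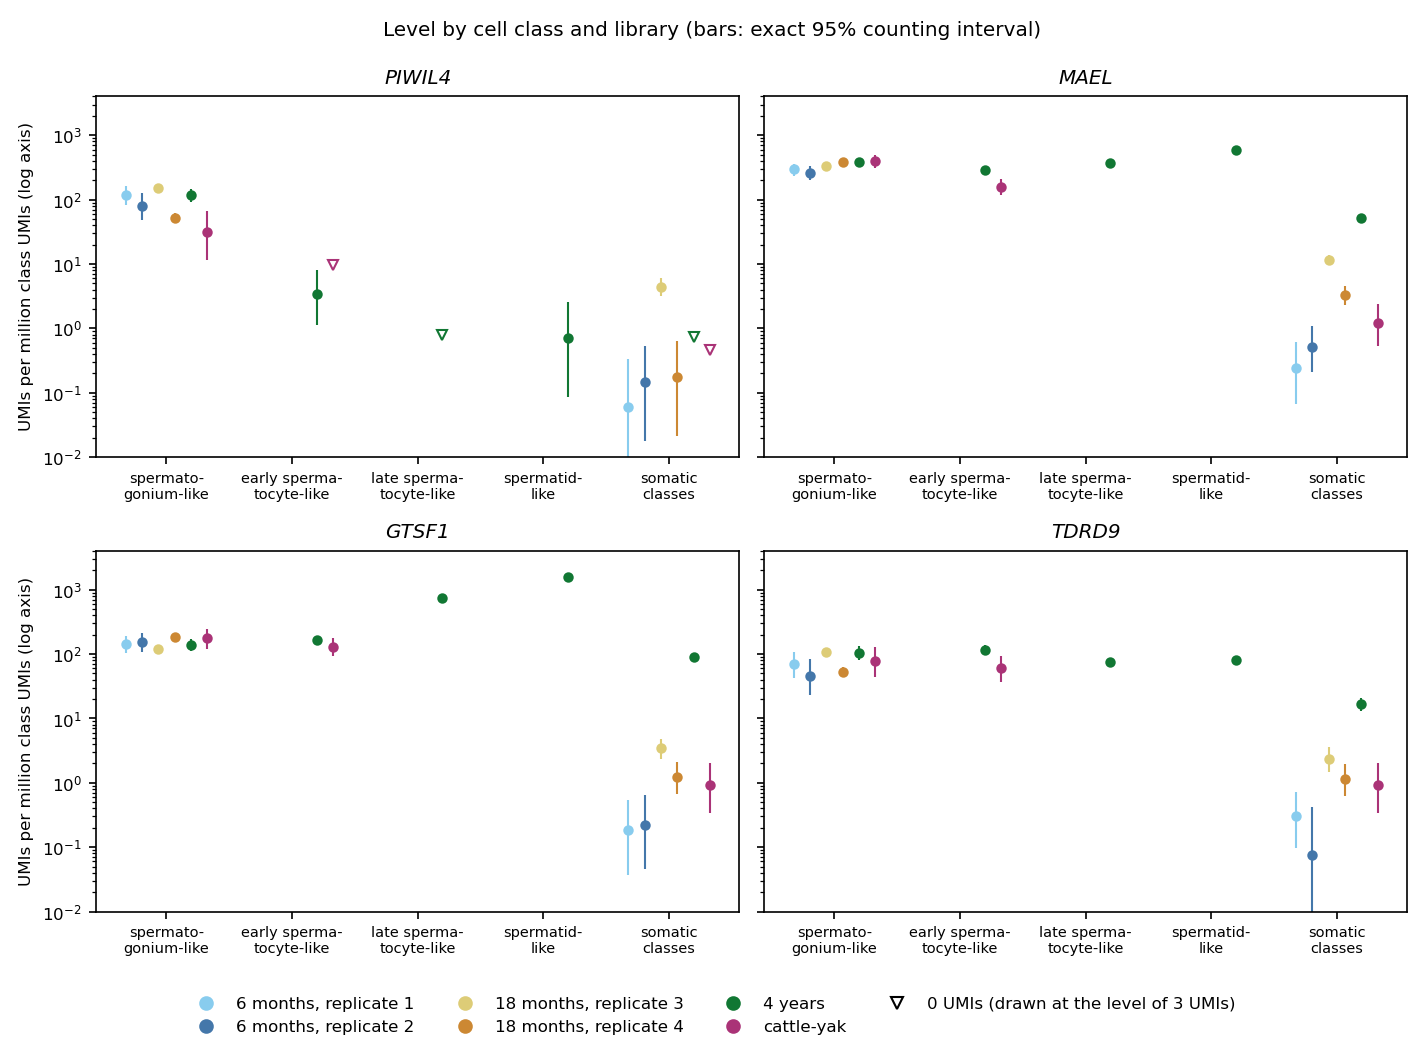
Level in CPM (log axis), over the UMIs of a class, of each gene in germ cell classes and in the pooled somatic classes, with 1 point per library and exact 95% counting intervals; classes under 20 cells are not drawn, and open triangles mark 0 UMIs at the level 3 UMIs would give. PIWIL4 at 4 years stands at 3.41 CPM or less after the spermatogonium-like class, GTSF1 reaches 1580 CPM in spermatids, and the pooled somatic points of the 4-year library stand highest for every gene but PIWIL4.

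The spermatogonium-like class was made of a deep cluster with a median of 14587 UMIs per cell and a shallow cluster with a median of 1008.5 UMIs. The shallow cluster held 42 of 72 and 58 of 80 of these cells at 6 months, 368 of 697 and 439 of 562 at 18 months, 5 of 63 in the 4-year library and 78 of 83 in the hybrid. These counts leave out cluster 39 of the 4-year library (151 cells, median of 1034 UMIs), which stayed unnamed. It had UCHL1 among its top genes but also raised late spermatocyte markers. With doublets kept and cells clustered anew, the 4-year library had 217 spermatogonium-like cells. PIWIL4 was lower in the shallow cluster than in the deep cluster in each yak library of 6 and 18 months. It stood at 88.8 against 132 CPM and 52.5 against 105 CPM at 6 months, and at 58.1 against 156 CPM and 27.4 against 62.5 CPM at 18 months. The counting intervals of both clusters overlapped at 6 months and did not at 18 months. MAEL stood at 280 to 377 CPM in the shallow and at 243 to 398 CPM in the deep cluster of the same libraries.

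Because depth per cell differed, each cell was also thinned to 1000 UMIs, leaving out shallower cells (17, 22, 216, 187, 0 and 48 spermatogonium-like cells from 6 months, replicate 1, to the cattle-yak). At that depth MAEL was seen in 25.5% and 17.2% of the spermatogonium-like cells of 6 months and in 23.9% and 30.7% of those of 18 months. The 4-year library had 30.2% and the cattle-yak 28.6%. Endothelial-like cells, which should lack the gene, showed it in 4.94% of cells at 4 years and in at most 1.00% elsewhere. Median depths before thinning were 1862 to 9011 UMIs in the spermatogonium-like and 1799 to 3972 UMIs in the endothelial-like cells. Without thinning, MAEL was seen in 34.9% to 85.7% of spermatogonium-like and 0% to 9.98% of endothelial-like cells.

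PIWIL4 was seen at the same depth in 14.5% and 8.62% of spermatogonium-like cells at 6 months, 12.1% and 4.27% at 18 months and 7.94% at 4 years. In the cattle-yak it was seen in 0 of 35 such cells, which allows a share of cells with a UMI at this depth of up to 8.57% by a floor of 3 cells, or 10.0% by the exact interval. Its share in endothelial-like cells was 0.574% in replicate 3 and 0 in the other libraries. Without thinning, the shares of spermatogonium-like cells were 26.4%, 16.25%, 37.9%, 13.0%, 44.4% and 2.41% from 6 months, replicate 1, to the cattle-yak. Over all 4 genes, the interval of the spermatogonium-like share lay above that of the endothelial-like share in 19 of 24 pairs of gene and library at 1000 UMIs, in 15 of 24 at 500 UMIs, in 19 of 20 at 2000 UMIs and in 23 of 24 without thinning. At 1000 UMIs the 5 pairs in which it did not were TDRD9 at 6 months (both replicates) and in the cattle-yak, PIWIL4 in the cattle-yak and GTSF1 at 4 years. For GTSF1 at 4 years, the shares were 12.7% of spermatogonium-like cells (interval 5.65% to 23.5%) and 8.11% of endothelial-like cells, so that detection per cell could not be told apart from this background.

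In the testis as a whole, all 4 genes stood higher in the 18-month than in the 6-month libraries. MAEL had 5.54 and 5.05 CPM of the whole library at 6 months and then 161 and 86.3 CPM at 18 months, and GTSF1 had 2.74 and 2.93 CPM and then 56.4 and 40.55 CPM. TDRD9 had 1.55 and 0.878 CPM and then 50.5 and 12.2 CPM. PIWIL4 had 2.21 and 1.54 CPM and then 70.9 and 11.0 CPM. No 18-month library overlapped a 6-month library for any of them. Replicate 3 was above replicate 4 for all 4 genes, and as a ratio the gap was widest for PIWIL4 and TDRD9.

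edgeR's quasi-likelihood test with Benjamini-Hochberg adjustment, run on all 13553 genes that passed the filter on low counts, called MAEL, GTSF1 and TDRD9. MAEL rose by 3.45 ± 0.36 (log2, SE, n = 2 libraries per age, adjusted p = 0.0340 in edgeR). GTSF1 rose by 3.06 ± 0.36 (adjusted p = 0.0340 in edgeR) and TDRD9 by 3.44 ± 0.59 (adjusted p = 0.0437 in edgeR). The estimate for PIWIL4 was 3.16 ± 0.69 (adjusted p = 0.0664 in edgeR), which did not pass. Thus 3 of 4 were called higher, with a median of 3.30 over the 4 genes, where 1.86% of all genes tested rose (252 genes) and 0.716% fell (97 genes), 2.58% in all. The 4 genes were chosen with earlier results of these data known, so the count of calls is a description only. Scaled to library totals in place of TMM factors, which shift the median gene by 1.03, 2956 genes rose and 87 fell. Whether both libraries of an age stem from different animals is not in the labels, and the p-values therefore reflect no more than the scatter of these samples.

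The 3 calls were lost without replicate 1 (adjusted p of 0.0614 to 0.0772 in edgeR), without replicate 2 (0.150 to 0.168) and without replicate 3 (0.0865 to 0.128). Without replicate 4 all 4 genes were called. Each of these fits has a lone library at 1 age, which is assumed to vary like the pair of the other age. The estimates were 3.30 to 3.53 for MAEL and 2.92 to 3.24 for GTSF1 throughout, 2.70 to 3.965 for TDRD9 and 1.94 to 3.84 for PIWIL4, lowest for these last genes without replicate 3. Of the other genes of the pathway, 23 of a list of 29 were in the files and 20 were tested. Among these, 8 rose and 0 fell, while 12 did not pass, with a median of 2.99 beside -0.04 for all genes tested. Of all genes tested, 1.86% rose. The list too was chosen with earlier results known, so its count is a description only. The 8 were the scaffold and Tudor-domain genes TDRKH (2.66 ± 0.40), STK31 (3.51 ± 0.46), TDRD5 (3.69 ± 0.63), RNF17 (4.18 ± 0.48) and TDRD1 (3.94 ± 0.54), the mitochondrial-surface genes ASZ1 (2.83 ± 0.37) and GPAT2 (3.55 ± 0.50), and the co-chaperone FKBP6 (3.55 ± 0.64). Each had an adjusted p between 0.0340 and 0.0470 in edgeR. The nuclear partners of PIWIL4 in transposon methylation, SPOCD1 (3.08 ± 0.70, adjusted p = 0.0717 in edgeR) and TEX15 (2.62 ± 0.56, adjusted p = 0.0634 in edgeR), did not pass.

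The share of germ cells moved with these levels, from 0.973% and 1.41% to 17.6% and 14.4% of cells. Of the UMIs of kept cells, germ cells held 1.80% and 1.74% at 6 months and 46.2% and 21.4% at 18 months. The summed level of the 11 measured spermatogonium markers moved too, from 139 and 109.5 CPM to 1200 and 1244 CPM of the whole library, with no marker at 0 in any of the 4 libraries. In sums over a whole library, more cells of a type and more RNA per cell cannot be told apart.

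Within spermatogonium-like cells the same contrast gave estimates of either sign. PIWIL4 was estimated at -0.33 ± 0.48, MAEL at 0.11 ± 0.45, GTSF1 at -0.24 ± 0.45 and TDRD9 at 0.13 ± 0.50 (log2, SE, n = 2 libraries per age, adjusted p of 0.757 to 0.929 in edgeR). None of the 4 was called, with a median of -0.07, where 1.45% of the 8904 genes tested rose and 1.11% fell, 2.56% in all. These estimates were too wide to show that the levels were alike, since the test found 0% of simulated 2-fold changes in this class and 76.5% of 8-fold changes. In whole libraries it found 0% and 80.0%. Scaled to library totals, which shifts the median gene by 0.30, 378 genes rose and 59 fell in place of 129 and 99. The shift is about the same for all genes, and the estimates were then 0.03 for PIWIL4 and 0.02 for GTSF1.

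Of the other pathway genes, 18 were tested in this class, and none passed in either direction. Their median was 0.23 beside 0.10 for all genes tested. TEX15 had 129 and 92.6 CPM at 6 months and then 470 and 205 CPM at 18 months (1.27 ± 0.47, adjusted p = 0.108 in edgeR). Sertoli markers were counted in the same cells. In the 6-month libraries 7 of 9 markers had a UMI (FSHR and DHH at 0), with 1814 and 2770 CPM in sum, and 9 of 9 at 18 months, with 809 and 1395 CPM. Mitochondrial UMIs made up 0.951% and 0.664% of the class at 6 months and 7.63% and 4.91% at 18 months. The part of either in the result was not tested.

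**Figure D2:**
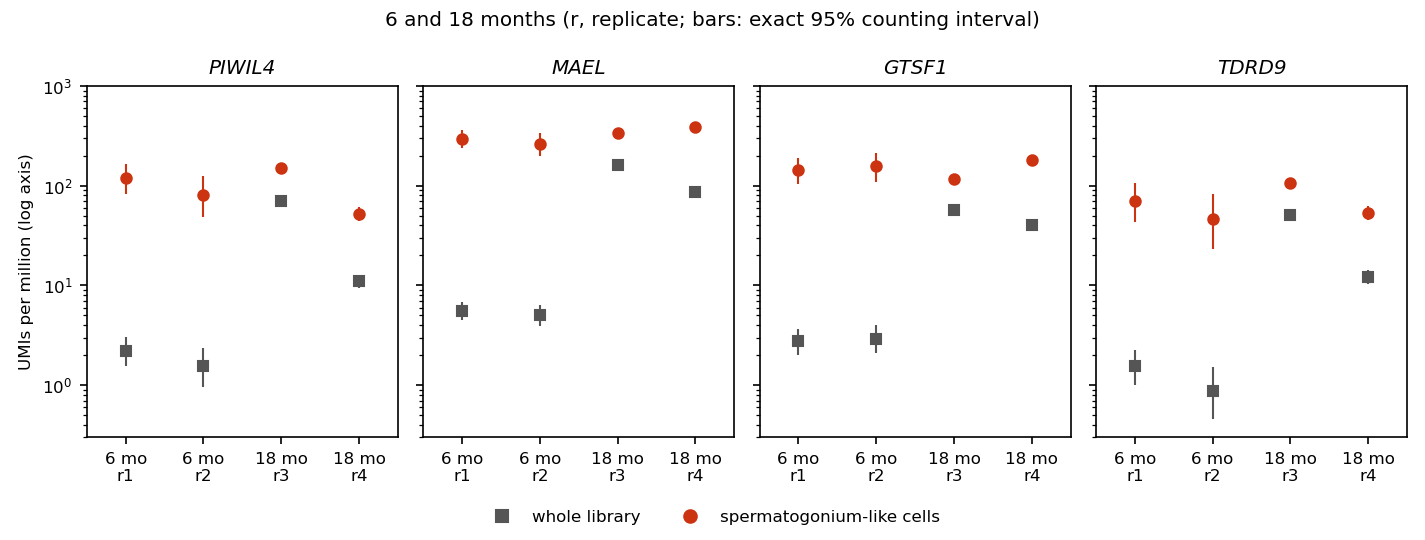
Level in CPM (log axis) in the whole library (squares) and in spermatogonium-like cells (circles) of the 6-month and 18-month libraries, with exact 95% counting intervals. Whole-library MAEL stands at 5.05 and 5.54 CPM at 6 months and at 86.3 and 161 CPM at 18 months, while all 4 points in spermatogonium-like cells lie between 261 and 387 CPM.

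The 4-year testis held every germ cell stage and showed how the 4 genes part during spermatogenesis. PIWIL4 was highest in spermatogonium-like cells, and GTSF1 and, by a smaller margin, MAEL were highest in spermatids. MAEL, GTSF1 and TDRD9 were counted in all stages. With 1 library there was no test, and intervals of ratios are exact, at 95%, and cover counting error only.

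PIWIL4 had 116 CPM in spermatogonium-like cells (76 UMIs) and 3.41 CPM in early spermatocyte-like cells (5 UMIs), a 34.0-fold lower level (interval 14.0 to 108). In late spermatocyte-like cells it had 0 of 3778324 UMIs. Against a floor of 3 UMIs per class it was at least 146-fold lower there. Spermatid-like cells held 2 UMIs (0.699 CPM, ratio to spermatogonium-like cells 0.00602, interval 0.000716 to 0.0225). With cells gated by their own markers, the early stage held 23 UMIs (15.95 CPM) against 23 UMIs in the spermatogonium-like cells (49.0 CPM), a ratio of 0.325 (interval 0.174 to 0.607), and the late stage a ratio of 0.0239.

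GTSF1 took the opposite course, with 141 CPM in spermatogonium-like cells, 166 CPM in early spermatocyte-like cells, 744 CPM in late spermatocyte-like cells and 1580 CPM in spermatid-like cells. The late spermatocyte level was 5.29-fold (interval 4.30 to 6.58) and the spermatid level 11.2-fold (9.14 to 14.0) that of spermatogonium-like cells. The step between the early stage and spermatogonium-like cells (1.18-fold, 0.924 to 1.52) was within counting error.

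MAEL had 378, 287, 370 and 592 CPM in the same order of stages. It was 0.761 times (interval 0.649 to 0.894) the spermatogonium-like level in early spermatocyte-like cells, 0.981 times (0.856 to 1.13) in late ones and 1.57-fold (1.37 to 1.80) in spermatids. TDRD9 had 104, 117, 74.9 and 81.5 CPM, and its ratio to spermatogonium-like cells was 1.13 (0.848 to 1.52), 0.721 (0.551 to 0.953) and 0.784 (0.596 to 1.04). The interval included 1 in the early stage and in spermatids but not in late spermatocyte-like cells.

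Counted by a change of at least 2-fold, 1 of the 4 was lower and none higher in the early stage, where 17.6% of genes were lower and 22.0% higher. In the late stage 1 was lower and 1 higher (40.0% and 25.9% of all genes), and in spermatids likewise (38.1% and 35.2%). Changes of this size were thus common among all genes.

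Of the other pathway genes, 21 were measured in early and in late spermatocyte-like cells. In the early stage, 5 were at least 2-fold higher than in spermatogonium-like cells and 6 lower (22.0% and 17.6% of all genes), with a median of -0.31 (log2 after adding 1 CPM) beside 0.10 for all genes. In the late stage, 10 were lower, 4 higher and 7 within 2-fold (40.0% and 25.9% of all genes were lower and higher), with a median of -0.84 beside -0.43 for all genes. These counts lie near the shares of all genes and do not set the list apart. SPOCD1, which links PIWIL4 to DNA methylation, had 275 CPM in spermatogonium-like, 30.0 CPM in early and 3.18 CPM in late spermatocyte-like cells, and 23.1 CPM in spermatids, 7.27-fold the late level (interval 3.89 to 14.8). TEX15 had 284, 116 and 38.6 CPM and then 115 CPM in spermatids, 2.98-fold the late level (interval 2.44 to 3.64). ASZ1 stood at 217, 165, 50.3 and 4.545 CPM in the same order, and STK31 at 523, 410, 177 and 20.6 CPM.

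RNF17 stood at 228, 329 and 323 CPM in these stages and at 78.0 CPM in spermatids. The Tudor-domain gene TDRD5 stood at 44.3, 35.5 and 281 CPM in the same stages and at 28.7 CPM in spermatids. PIWIL1, the PIWI protein of meiotic and later germ cells in mouse, stood at 4.59, 20.5 and 199 CPM and at 6.64 CPM in spermatids. In spermatids 14 of 20 list genes were at least 2-fold lower than in spermatogonium-like cells and 1 was higher (38.1% and 35.2% of all genes), with a median of -1.46 beside -0.12 for all genes. That gene was GTSF1L, a paralog of GTSF1, at 206 CPM in spermatids and between 2.05 and 4.59 CPM in the other stages. It was named after its values were seen.

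**Figure D3:**
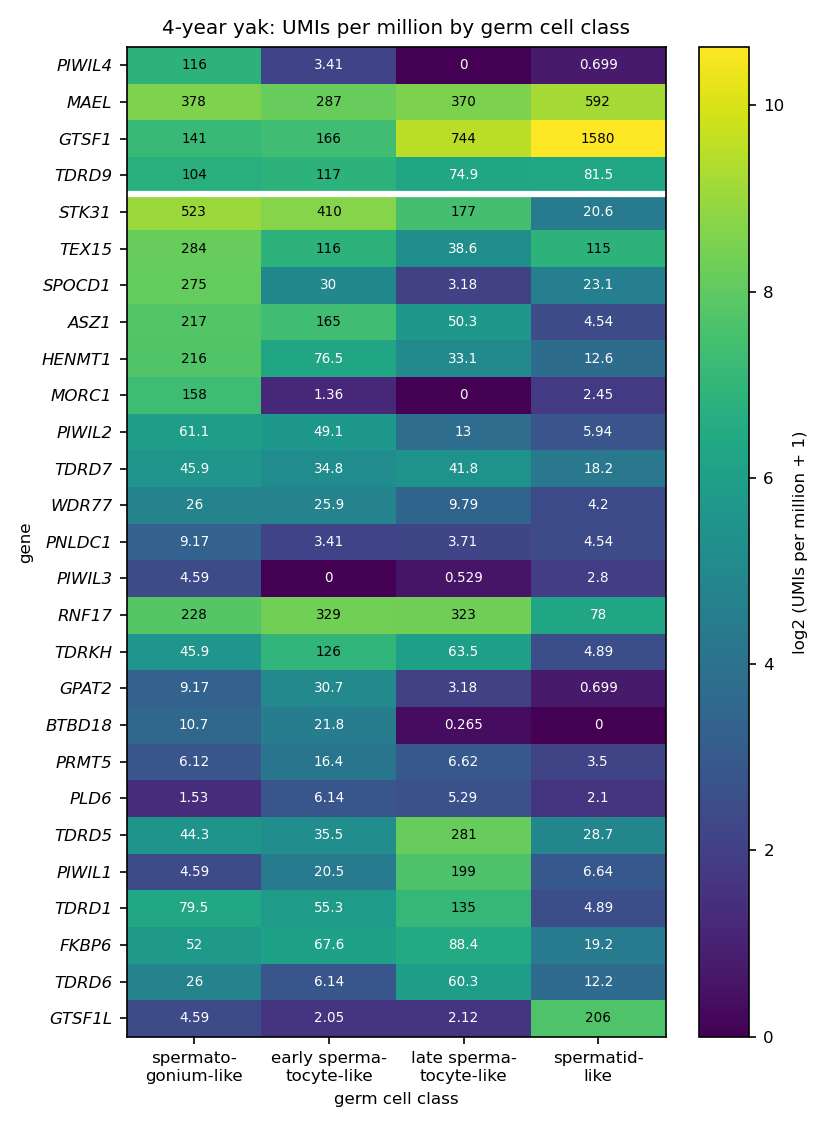
Level in CPM of the 4 genes (above the white line) and of 23 other piRNA pathway genes in the germ cell classes of the 4-year library, coloured by log2 of CPM plus 1. PIWIL4, SPOCD1 and MORC1 are highest in the spermatogonium-like column (SPOCD1 is at 3.18 CPM in the late spermatocyte-like and 23.1 CPM in the spermatid-like column), TDRD5 and PIWIL1 peak in the late spermatocyte-like column, and GTSF1 and GTSF1L peak in the spermatid-like column.

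RNA of the germ cell genes was also counted in somatic cells of the 4-year library. Pooled somatic classes held GTSF1 at 90.4 CPM, MAEL at 52.2 CPM and TDRD9 at 16.6 CPM, but PIWIL4 at 0 of 4103213 UMIs. GTSF1 stood at 91.2 CPM in endothelial-like, 102.5 CPM in lymphocyte-like and 56.1 CPM in mural-like cells. In the other libraries the pooled somatic level of GTSF1 was 0.182 to 3.44 CPM. The spermatid marker list summed to 507 CPM in endothelial-like cells at 4 years (11 of 11 markers with a UMI), against 6.76 to 23.0 CPM in the other libraries (1 to 3 of 11 markers, TNP1 and ACRV1 at 0).

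GTSF1 had 1.73 UMIs per UMI of MAEL in the somatic classes (interval 1.46 to 2.06). The ratio was 2.04 in all germ cells together, 2.67 in spermatids, 2.01 in late spermatocyte-like cells and 0.373 in spermatogonium-like cells (interval 0.290 to 0.475). Spermatogonium-like cells held the spermatid list at 151 CPM (8 of 11 markers). At 6 and 18 months, where there were no spermatids, they held it at 83.7 to 114 CPM. The part of RNA from other cells in the 4-year GTSF1 level of spermatogonium-like cells (141 CPM) was not tested.

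In replicate 3 of 18 months, germ cells held 46.2% of all UMIs of kept cells, and PIWIL4 reached 41 UMIs in somatic cells (4.41 CPM), against 2 UMIs (0.178 CPM) in replicate 4. In that library the ratio of GTSF1 to MAEL was 0.296 in somatic classes (interval 0.193 to 0.443) and 0.352 in germ cells (0.327 to 0.380).

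RNA of the 4 genes was counted in germ cell classes of the cattle-yak, for PIWIL4 with 6 UMIs only, all in spermatogonium-like cells. In the whole library MAEL stood at 19.0 CPM, GTSF1 at 13.99 CPM, TDRD9 at 5.39 CPM and PIWIL4 at 0.770 CPM, against 296, 594, 62.0 and 6.80 CPM at 4 years. Comparison of germ cell classes of 1 library with 1 allowed no test of the genotypes.

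In spermatogonium-like cells, the cattle-yak had 1.04 times the 4-year level of MAEL (interval 0.796 to 1.35), 1.25 times that of GTSF1 (0.819 to 1.87) and 0.748 times that of TDRD9 (0.397 to 1.32), each with an interval that includes 1. PIWIL4 was lower, with 6 UMIs (31.1 CPM) against 76 UMIs (116 CPM), a ratio of 0.268 (interval 0.0952 to 0.610). Of the 4, 1 was thus at least 2-fold lower and none higher, where 19.7% of all genes were lower and 8.18% higher.

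All 6 PIWIL4 UMIs lay in 2 cells of the deep cluster, of which the cattle-yak had 5 cells. Within the deep cluster the levels were 61.1 CPM in the cattle-yak and 121 CPM at 4 years (ratio 0.503, interval 0.179 to 1.15). The 78 shallow cells of the cattle-yak held 0 of 94721 UMIs, which allows up to 31.7 CPM by the floor of 3 counts. That limit is above the 27.4 CPM of the shallow cells of replicate 4. It is below the values of the other 6-month and 18-month libraries, taken without their counting intervals. The unnamed shallow cluster 39 of the 4-year library had 49.6 CPM, with an interval (23.8 to 91.25 CPM) that includes the limit. Gated by their own markers, spermatogonium-like cells gave a ratio of 0.540 (0.136 to 1.58) between the cattle-yak and 4 years. The intervals of the deep-cluster and the gated ratio both included 1. The class came mainly from the shallow cluster in the cattle-yak and from the deep cluster at 4 years. Median depth was 857 UMIs per spermatogonium-like cell in the cattle-yak and 8833 UMIs at 4 years, and the part of depth in the PIWIL4 ratio was not tested.

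Of 15 other pathway genes measured in the class, 4 were at least 2-fold lower in the cattle-yak, none was higher and 11 were within 2-fold, where 19.7% of all genes were lower and 8.18% higher. Their median was -0.50 (log2) beside -0.19 for all genes, and the count of 4 is near the share of all genes. The 4 were SPOCD1, with 12 against 180 UMIs (62.2 and 275 CPM), MORC1, TEX15 (129.6 and 284 CPM) and RNF17 (109 and 228 CPM). MORC1 had 3 against 103 UMIs (15.55 and 157.5 CPM), so that its cattle-yak count was at the floor of 3 UMIs. These ratios too compare mainly shallow cells of the cattle-yak with mainly deep cells at 4 years. The part of that mix and of depth in them was not tested.

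In early spermatocyte-like cells, the cattle-yak had lower MAEL, at 160 CPM against 287 CPM (ratio 0.555, interval 0.406 to 0.746), and lower TDRD9, at 60.6 against 117 CPM (0.516, interval 0.304 to 0.831). GTSF1 stood at 131 and 166 CPM (0.789, interval 0.552 to 1.10), but with cells gated by their own markers its ratio was 0.533, with an interval below 1 (0.365 to 0.757). The spermatid marker list summed to 89.35 CPM in these cells of the cattle-yak (3 of 11 markers) and to 209.6 CPM at 4 years (10 of 11 markers), and its part in the ratios was not tested. PIWIL4 had 0 UMIs in 40 cells of the cattle-yak and 5 UMIs in 193 cells at 4 years, and no ratio is given at these counts. Of the 3 genes with enough counts, none differed by 2-fold on the scale with 1 CPM added, where 15.4% of genes were lower and 8.37% higher. With the gate, the ratio of MAEL was 0.4045 (interval 0.281 to 0.566), a difference of more than 2-fold. Of 18 measured list genes, 16 were within 2-fold, with TDRD7 higher (83.0 and 34.8 CPM, ratio 2.38, interval 1.43 to 3.89) and PIWIL1 at 6.38 and 20.5 CPM (2 and 30 UMIs, ratio 0.312, interval 0.0361 to 1.23, which includes 1).

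**Figure D4:**
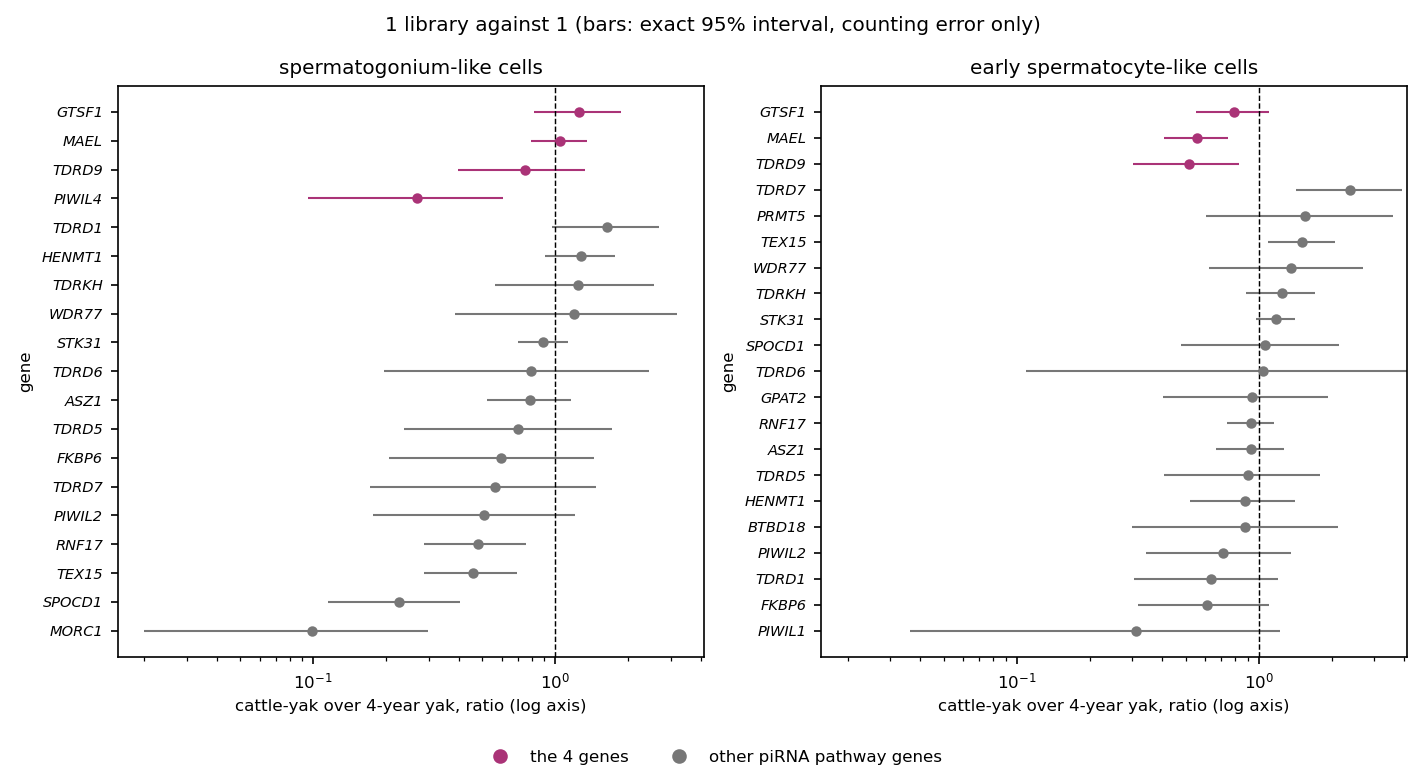
Ratio of CPM in the cattle-yak to CPM in the 4-year yak (log axis) in spermatogonium-like and early spermatocyte-like cells, for genes with at least 10 UMIs in the pair, with exact 95% counting intervals and a dashed line at 1. PIWIL4 (0.268), SPOCD1 and MORC1 have the lowest ratios of the spermatogonium-like panel, with MORC1 lowest. That panel compares mainly shallow cells of the cattle-yak with mainly deep cells at 4 years. MAEL (0.555) and TDRD9 (0.516) lie below 1 in the early spermatocyte-like panel.

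Spermatogonium-like cells were not uniform in PIWIL4. Cells thinned to 5000 UMIs were divided by whether they held a UMI of NANOS3 or of DMRT1, an RNA-binding protein and a transcription factor of spermatogonia known for roles in their differentiation. In replicate 3, PIWIL4 had 47.1 CPM in the 85 cells with NANOS3 and 224.5 CPM in the 220 cells without (ratio 0.210, interval 0.126 to 0.331). In replicate 4, the values were 15.4 CPM in 39 cells and 82.9 CPM in 82 cells (0.186, interval 0.0365 to 0.590). At 4 years they were 76.9 CPM in 13 cells and 145 CPM in 33 cells (0.529, interval 0.158 to 1.41).

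The division by DMRT1 went the same way. PIWIL4 had 122 CPM in cells with DMRT1 and 227 CPM in cells without in replicate 3 (ratio 0.536, interval 0.412 to 0.694), and 27.4 and 112.5 CPM in replicate 4 (0.244, interval 0.105 to 0.519). At 4 years the values were 66.7 and 164 CPM (0.406, interval 0.135 to 1.025). Both intervals at 4 years included 1. NANOS3 and DMRT1 came from a list of genes of differentiating spermatogonia and were singled out after their values were seen. They were the 2 of 5 measured genes of that list in replicate 3, and the 2 of 4 in replicate 4, whose interval lay below 1, and at 4 years it was 0 of 3. In replicate 3 the ratios of the other list members were 1.40 for KIT (interval 0.978 to 1.96), 0.739 for DMRTB1 (0.526 to 1.02) and 0.729 for REC8 (0.383 to 1.27). Both are also among the spermatogonium markers that named the clusters, and the intervals cover counting error among cells of 1 library only.

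For MAEL the values lay close together, with 348 and 325.5 CPM in cells with and without NANOS3 in replicate 3 (ratio 1.07, interval 0.877 to 1.30) and 385 and 368 CPM in replicate 4 (1.04, interval 0.781 to 1.39). GTSF1 stood at 127 and 123 CPM and at 169 and 176 CPM in the same cells, and TDRD9 at 87.1 and 119 CPM and at 30.8 and 34.15 CPM, with intervals of the ratio that included 1. In replicate 4 and at 4 years, no state gene divided these 3 genes with an interval that excluded 1. In replicate 3 few did, of 9 measured genes of undifferentiated and 5 of differentiating spermatogonia. MAEL was lower in cells with GFRA1 (ratio 0.626, interval 0.415 to 0.911), GTSF1 was lower in cells with ETV5 (0.366, interval 0.0988 to 0.954, 4 UMIs) and higher in cells with ID4 (1.49, interval 1.06 to 2.06), and TDRD9 was lower in cells with KIT (0.5405, interval 0.264 to 0.994). Whether the divisions of PIWIL4 differ from those of the other genes was not tested. At 2000 UMIs the PIWIL4 ratio for NANOS3 was 0.426 in replicate 3 (interval 0.153 to 0.958) and 0.6095 in replicate 4 (0.0676 to 2.62). For DMRT1 it was 0.343 in replicate 3 (0.176 to 0.614), 0.308 in replicate 4 (0.0568 to 1.10) and 0.9375 at 4 years (0.0925 to 5.24). At this depth, chosen after seeing the data, only the ratios of replicate 3 had intervals below 1.

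Other state genes gave mixed results in replicate 3, the library with the most deep cells. PIWIL4 was higher in cells with EGR4 (362.5 and 153 CPM), FGFR3 (254.5 and 158 CPM) and PHF13 (205 and 146 CPM), genes of undifferentiated spermatogonia. It was lower in cells with ZBTB16 (116 and 213 CPM) and RET (104.5 and 187 CPM), which are genes of undifferentiated spermatogonia as well. Of 9 measured genes of that list, 3 thus had an interval above 1 and 2 below. No interval excluded 1 among the 4 measured in replicate 4 and the 3 measured at 4 years. In replicate 3, cells with PIWIL4 had 144 CPM of TDRD9 and cells without had 82.8 CPM (ratio 1.74, interval 1.27 to 2.40). At 2000 UMIs the ratios for PHF13 (0.802, interval 0.496 to 1.26) and for TDRD9 in cells with PIWIL4 (0.872, interval 0.471 to 1.52) lay below 1 in the same library. At 5000 UMIs the TDRD9 ratio was 0.870 (0.212 to 2.70) in replicate 4 and 0.496 (0.166 to 1.24) at 4 years.

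**Figure D5:**
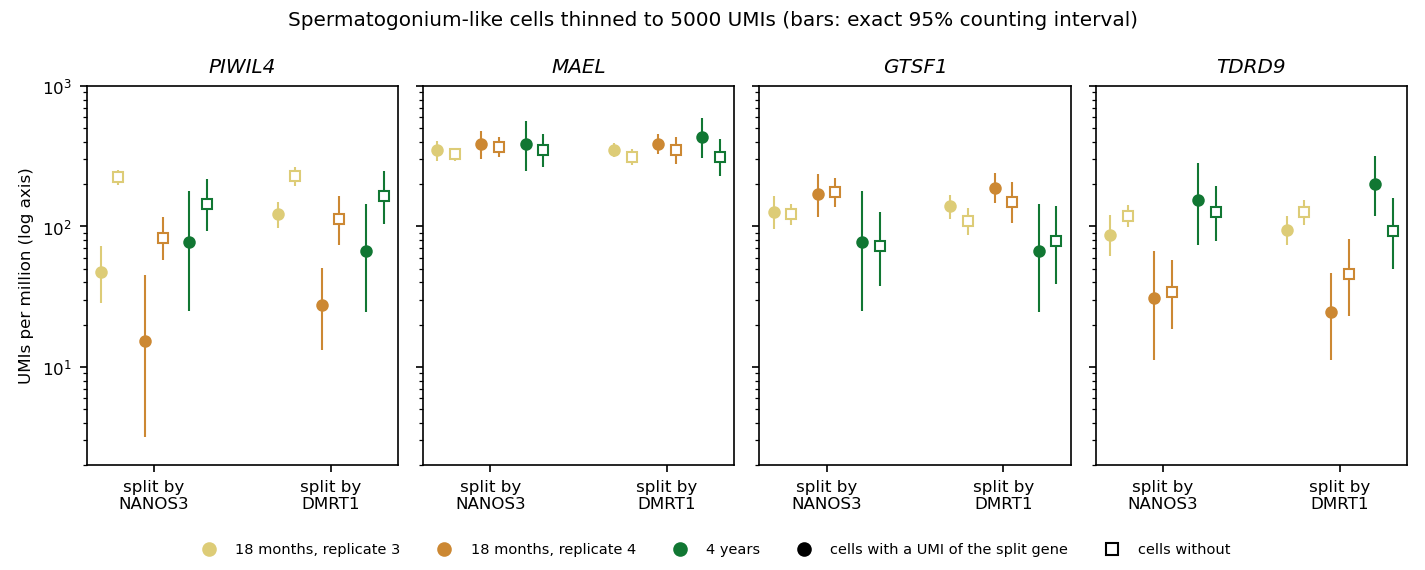
Level in CPM (log axis) of each gene in spermatogonium-like cells thinned to 5000 UMIs, in cells with (filled) and without (open) a UMI of NANOS3 or DMRT1, for the 18-month and 4-year libraries, with exact 95% counting intervals. PIWIL4 is lower in the filled points of every pair, with intervals of the ratio that include 1 at 4 years, while MAEL points of a pair lie close together.

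The genes whose pattern was most like each of the 4 were sought among 8482 genes over 40 sums of cells of 1 class and library (log2 of CPM plus 10, Pearson's r). The sums share libraries, depth and the contrast of germ with somatic cells, so r is a description. PIWIL4 was most like MORC1 (0.969), SPOCD1 (0.967) and ZSWIM5 (0.964). Over the 9 germ cell sums alone, these values were 0.972, 0.970 and 0.946. GTSF1 was most like DDX25 (0.986), TUBA3D (0.977) and ADAD1 (0.973), with 0.910, 0.865 and 0.873 over germ cell sums.

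MAEL was most like TDRD9 (0.982), REC114 (0.976) and TUBA3D (0.968), and TDRD9 most like MAEL, REC114 (0.967) and SMC1B (0.967). Over germ cell sums alone MAEL had 0.127 with TDRD9, -0.63 with REC114 and 0.634 with TUBA3D, and TDRD9 had -0.28 with REC114 and 0.378 with SMC1B. The likeness seen over all sums was thus lower among germ cell sums, and for REC114 its sign turned.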

How the data were processed

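The authors deposited raw UMI counts per gene and cell barcode, already filtered to cells (at least 500 UMIs per barcode), made with Cell Ranger (version 5.0.0, per the file headers, or 2.1.1, as the submitters' processing notes have it). No source used here names the genome build. Of 40564 barcodes, cells needed 300 or more genes and no more than 20% mitochondrial UMIs, and the highest-scoring 0.8% per 1000 barcodes by Scrublet (expected rate 0.06, 2259 cells) were removed as doublets. Clustering used scanpy 1.11.5 and igraph 0.11.9 in Python 3.11.15 (2000 variable genes without piRNA pathway genes, 30 components, 15 neighbours, Leiden resolution 2). A cluster was named when at least 3 markers of a list were raised 2-fold and found in at least 2% of its cells. A set share of the list was also required, as was a lead over the lists of other cell types. No other list could hold more markers among the top genes of the cluster. Lists of germ cell stages competed with each other with no required lead, a choice made after seeing the data.

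Raw counts were summed per library and class. Ages with 2 libraries were compared with edgeR 4.0.16 in R 4.3.3 (quasi-likelihood test, TMM, filterByExpr, Benjamini-Hochberg adjustment over all genes tested, threshold 0.05), with DESeq2 1.42.0 as an alternative. Other ratios carry exact 95% intervals from scipy 1.17.1 (Poisson, conditional binomial or Clopper-Pearson) that cover counting error only. Counts of genes at least 2-fold apart used genes with at least 10 UMIs in the pair and 1 CPM added. On simulated data with 200 changed genes, the test recovered 0% of 2-fold and 80.0% of 8-fold changes in whole libraries (13553 genes) and 0% and 76.5% in spermatogonium-like cells (8904 genes).

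The genes named are the 4 genes, list genes called between ages, the 4 list genes highest in spermatogonium-like cells and the 4 highest in spermatocyte-like cells at 4 years, and the 3 genes most like each of the 4 among genes with at least 20 CPM in a sum of at least 50 cells. Others are named where they make up a small count. The members and the lists were chosen with earlier results of these data known. DDX4, TDRD12, MOV10L1, MYBL1, DNMT3L and EXD1 were not analysed here. TDRD9 overlaps RD3L in the RefSeq gene table (matched by symbol), and no source used here says how the counting treated overlaps.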

Additional observations from a re-analysis of the deposited data

Results flagged for a closer look

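Cells of unnamed clusters entered the whole-library levels and shares, and could enter classes under the alternative rules. In the main grouping they entered no cell class, and cluster 39 was added to a class as an alternative only. Of the unnamed clusters, 4 of the 4-year library held RNA of these genes above the level that a count of 0 allows. Cluster 39 (151 cells, median of 1034 UMIs) had PIWIL4 at 49.6 CPM (10 UMIs), MAEL at 362 CPM, GTSF1 at 288 CPM and TDRD9 at 79.4 CPM. It was the only one of the 4 with PIWIL4 above that level. Cluster 9 (197 cells) had MAEL at 78.3 CPM, GTSF1 at 156.5 CPM and TDRD9 at 22.4 CPM. Cluster 37 (281 cells) had MAEL at 55.6 CPM, GTSF1 at 138 CPM (137.9) and TDRD9 at 19.35 CPM, with 1 UMI of PIWIL4. Cluster 40 (69 cells) had MAEL at 117 CPM (116.6) and GTSF1 at 333 CPM.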

How the results depend on the processing

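No paired analysis was possible because the replicate numbers of the ages compared (1 and 2 against 3 and 4) are not shared. In whole libraries, 349 genes were called between ages, against 1356 with DESeq2, 3043 with library totals in place of TMM, 2206 with no filter on low counts, 575 with a stricter cell filter, 142 with every deposited barcode and 0 to 2401 leaving out a replicate. The counts of 0 came without replicate 2 and without replicate 3, where edgeR gave 2088 and 2273 genes at an unadjusted p under 0.05. PIWIL4 passed with DESeq2 (3.185), with library totals (4.45) and with no filter (3.11), and leaving out a replicate gave 1.94 to 3.84. Leaving out a replicate gave 3.30 to 3.53 for MAEL, 2.92 to 3.24 for GTSF1 and 2.70 to 3.965 for TDRD9, which did not pass with every barcode (3.34). In spermatogonium-like cells, 228 genes were called, against 137 with DESeq2, 437 with library totals, 151 with no filter, 39 with the stricter cell filter, 23 with doublets kept, 93 with cells gated by their own markers, 11 after thinning to 1000 UMIs, 88 in the shallow cluster alone and 18 to 1002 leaving out a replicate. None of the 4 genes passed in this class under any of these, and estimates near 0 took either sign. Library totals move all genes of this class up by about the same 0.30, with PIWIL4 then at 0.0266 and GTSF1 at 0.0194. PIWIL4 gave 0.0444 with doublets kept, 1.335 with the gate and -1.12 to 0.22 leaving out a replicate. MAEL gave -0.002146 with doublets kept, -0.0734 in the shallow cluster and -0.0841 to 0.28 leaving out a replicate. GTSF1 gave 0.19 in the shallow cluster and -0.70 to 0.10 leaving out a replicate. TDRD9 gave -0.25 in the shallow cluster and -0.32 to 0.51 leaving out a replicate. Among log2 ratios at 4 years, PIWIL4 over spermatogonium-like cells moved to -1.62 (early) and -5.39 (late) with the gate. GTSF1 over spermatogonium-like cells gave -0.19 (early), 1.96 (late) and 3.04 (spermatid) with doublets kept, 3.18 (spermatid) with the gate, and 2.085 (late) and 3.17 (spermatid) with the unnamed cluster 39 added. TDRD9 in spermatids over late spermatocyte-like cells gave -0.32 with the gate. For the cattle-yak over 4 years in early spermatocyte-like cells, the gate gave -1.31 for MAEL and -0.91 for GTSF1. The causes were not tested. The other 181 values kept their direction and their side of the threshold. The single clusters, the added cluster and the depth of 2000 UMIs were chosen after seeing the data, and the latter gave log2 ratios of -1.23 and -0.71 for NANOS3 (replicates 3 and 4) and -1.55 for DMRT1 (replicate 3). Few UMIs limit the cattle-yak values and the 6-month spermatogonium-like values most.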
